A study of Mus musculus with 8 samples.

Results

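The genes described here encode the secreted factors, receptors and Smad proteins of 4 signaling families, the fibroblast growth factors (FGF), the bone morphogenetic proteins (BMP), transforming growth factor β (TGF-β) and the Wnts. They were chosen by symbol, as the genes on the MG-U74Av2 array whose probe set carries a single symbol that starts with Fgf, Fgfr, Bmp, Bmpr, Tgfb, Tgfbr, Smad, Wnt or Fzd and continues as a family member's does. This gave 72 genes of the 8251 genes with such probe sets, measured by 88 probe sets of 12422, and the brightest probe set over the 8 arrays stood for the 12 genes that had several. The symbols also brought in Bmp2k, Fgfr1op2 and Tgfb1i1, which are neither ligands, receptors nor Smads and are described apart.

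RNA came from lenses of mice 10 days old, of both sexes, and was hybridized to 8 arrays, 2 for each of 4 groups. The groups were C57BL/6J lenses with the α3Cx46 gene disrupted (C57BL/6J KO), C57BL/6J wild-type lenses (C57BL/6J WT), 129SvJae lenses with the same disruption (129SvJae KO) and 129SvJae wild-type lenses (129SvJae WT). α3Cx46, the product of Gja3, is a connexin of the gap junctions that couple lens fiber cells, and the disruption was a germline one, carried by every cell of the KO mice. RNA for an array was drawn from 20 to 30 lenses pooled together. The labels do not say whether both pools of a group held different animals, so the p-values reflect the spread of these pools only, and that spread may be technical.

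FGFs bind receptor tyrosine kinases and are the best known inducers of fiber differentiation, the step at which lens epithelial cells near the equator stop dividing and elongate. BMPs and TGF-βs bind serine/threonine kinase receptors that phosphorylate Smads, which enter the nucleus with Smad4. BMPs are needed to form the lens, and TGF-β is known for turning lens epithelial cells into fibroblast-like cells. Wnts bind Frizzled receptors and act through β-catenin or through pathways of cell polarity, and in the lens they are known for roles in the epithelium and in fiber alignment.

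All 8 of the lens fiber cell markers on the array, crystallins and the membrane protein Mip among them, and all 8 of the lens epithelial cell markers exceeded a signal of 50 in every group. Markers of other cell types were also above it in all 4 groups, 5 of 11 for the retina, 3 of 9 for macrophages, 3 of 7 for fibroblasts and connective tissue, 4 of 8 for vessels and blood, 3 of 6 for corneal and surface epithelium and 3 of 6 for pigment cells. Among the macrophage markers, C1qb (1927 to 6089), Cd14 (162 to 306) and Csf1r (74.8 to 405) exceeded 50 on every array, Cd68 lay between 30.7 and 152, and Adgre1, Itgam, Lyz2, C1qa and Aif1 stayed at or under 37.2. Gja3 had signals of 448 and 519 in C57BL/6J KO lenses, against 1968 and 3274 in C57BL/6J WT lenses, and of 472 and 445 in 129SvJae KO lenses, against 1100 and 3381 in 129SvJae WT lenses. Where its probes lie relative to the disrupted stretch was not analysed here. Prm1, which encodes a sperm chromatin protein, had signals of 1386 and 1339.6 in C57BL/6J KO lenses, against 9.99 and 4.7 in C57BL/6J WT lenses, and of 1582 and 2167 in 129SvJae KO lenses, against 387 and 14.5 in 129SvJae WT lenses. The study proposes the knockout construct as the likely source of its KO signal, since the neomycin gene there carries protamine polyadenylation sequence. That source was not tested here. The first array of 129SvJae WT stood apart in both genes, and it also carried the retinal gene Sag at 475, against 9.99 to 94.5 on the other arrays. The run record of the first C57BL/6J WT array noted a fluidics error. The first arrays of all 4 groups shared a scan session, and the second array of 129SvJae WT was alone in its own. Between 7637 and 8602 probe sets exceeded 50 on an array.

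The first question was which of these genes could be read in the lens. The level, taken from the study's methods, was a group mean above 50, and signals below it were treated as close to background. Of the 72 genes, 54 reached it in at least 1 group (75%), 32 in all 4 groups (44.4%) and 24 on all 8 arrays (33.3%). The shares over all 8251 genes were 86.7%, 64.2% and 52.7%. Signals of different probe sets have no common scale, so no gene's level is set against another's. The genes closest to the level were Bmp15, Wnt8a and Bmp2, with highest group means of 47.9, 48.6 and 48.8, and Bmp2k, Tgfb1 and Fzd6, with 52.1, 57 and 61.2.

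Counts by family are set beside the 86.7% of all genes that were above the level in at least 1 group. All 7 Smads, all 4 FGF receptors, all 3 BMP receptors, 2 of 3 TGF-β receptors and 7 of 8 Frizzled receptors had a mean above 50 in at least 1 group. Of the ligands, 6 of 13 FGFs, 5 of 9 BMPs, all 3 TGF-βs and 10 of 14 Wnts did, as did 3 of the 4 FGF homologous factors, intracellular relatives of FGF that bind no FGF receptor. The differences between these counts were not tested. Probe sets have no common scale, so the counts do not rank the families. Of the TGF-β receptors counted, Tgfbr1 reached the level through 1 array, described below.

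**Figure D1:**
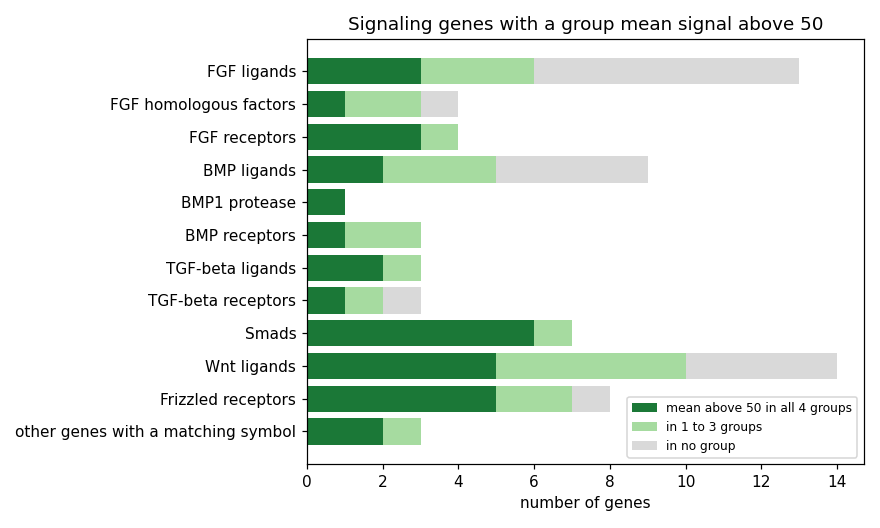
Bars give the number of genes per family, split by whether the mean signal was above 50 in all 4 groups (dark green), in 1 to 3 groups (light green) or in no group (grey). The dark part holds 6 of the 7 Smads, 2 of the 3 TGF-β ligands, 1 of the 3 TGF-β receptors, 3 of the 13 FGF ligands and 5 of the 14 Wnt ligands.

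The 18 genes that stayed at or under the level in every group had highest group means of 13.8 to 48.8. They were 7 FGF ligands (Fgf2, Fgf3, Fgf5, Fgf8, Fgf9, Fgf10 and Fgf15), the FGF homologous factor Fgf14, 4 BMP ligands (Bmp2, Bmp5, Bmp8a and Bmp15), the TGF-β type II receptor Tgfbr2, 4 Wnt ligands (Wnt4, Wnt5a, Wnt8a and Wnt11) and the Frizzled receptor Fzd2. For 11 of them no single array exceeded 50, among them Fgf2, or basic FGF, at 3.5 to 24.2, and Tgfbr2, at 8.19 to 42.2. A signal this low on a probe set is not evidence that the transcript was missing.

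Another 22 genes were above the level in 1 to 3 groups. Tgfbr1, the TGF-β type I receptor, exceeded 50 on 1 array, the C57BL/6J WT array with the fluidics error (141), and lay between 6.1 and 31.3 on the others. Smad3, a TGF-β Smad, exceeded 50 on 4 arrays, with 20.2 to 87 over all 8. Bmpr1a and Bmpr1b, the type I receptors for BMPs, each exceeded it on 4 arrays, at 35.7 to 119 and 28.7 to 106. Tgfb1, the founding TGF-β, did so on 2 arrays and reached 76.6. The other genes of this kind were Fgf6, Fgf12, Fgf13, Fgf17, Fgf18, Fgfr4, Bmp6, Bmp8b, Bmp10, Wnt2b, Wnt3a, Wnt6, Wnt10a, Wnt10b, Fzd6, Fzd9 and Bmp2k. Each had arrays on both sides of 50, with a lowest signal of 7.99, for Fgf6, and a highest of 195, for Wnt10b.

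The second question was how these genes differed between strains and with the loss of α3Cx46. Ratios are log2 ratios of C57BL/6J over 129SvJae and of KO over WT, taken from a limma fit across the 10078 probe sets that reached this level in any group, and the averaged ratios take both genotypes or both strains together. A gene was called when its p, adjusted after Benjamini and Hochberg, was under 0.05. Of the 54 genes that could be tested, 0 were called in any of the 7 comparisons. The averaged strain difference called 37 of all probe sets (0.367%), that in WT lenses 7 (0.0695%) and that in KO lenses 9 (0.0893%). The averaged KO effect called 2 (0.0198%), the KO effect in C57BL/6J lenses 1 (0.00992%), that in 129SvJae lenses 0 and the interaction 0. At these shares fewer than 1 of 54 genes would be called.

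At an unadjusted limma p under 0.05, the averaged strain difference took in 3 of the 54 genes, against 6.97% of all probe sets, and the averaged KO effect 1, against 3.05%. The strain difference took in 5 genes in WT lenses (6.47% of all probe sets) and 2 in KO lenses (3.73%), and the KO effect 1 in 129SvJae lenses (3.12%) and 0 in C57BL/6J lenses (2.31%). The interaction, the KO effect in C57BL/6J lenses minus that in 129SvJae lenses, took in 0 genes, against 2.11% of all probe sets. The median averaged strain ratio was 0.10 over the 54 genes and 0.01 over all probe sets, and the median averaged KO ratio was -0.06 and -0.02. With a median SE of 0.57 for the averaged ratios of these genes, against 0.42 over all probe sets, a change had to be large to be called. With 2 arrays a group, signals of a pair of groups often do not overlap. Between strains this held for 19 of the 54 genes in WT lenses (32.3% of all probe sets) and 17 in KO lenses (31.9%), and between KO and WT for 19 in 129SvJae lenses (29.8%) and 12 in C57BL/6J lenses (27.7%). In whole lenses fewer cells of a type and less RNA per cell cannot be told apart.

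**Figure D2:**
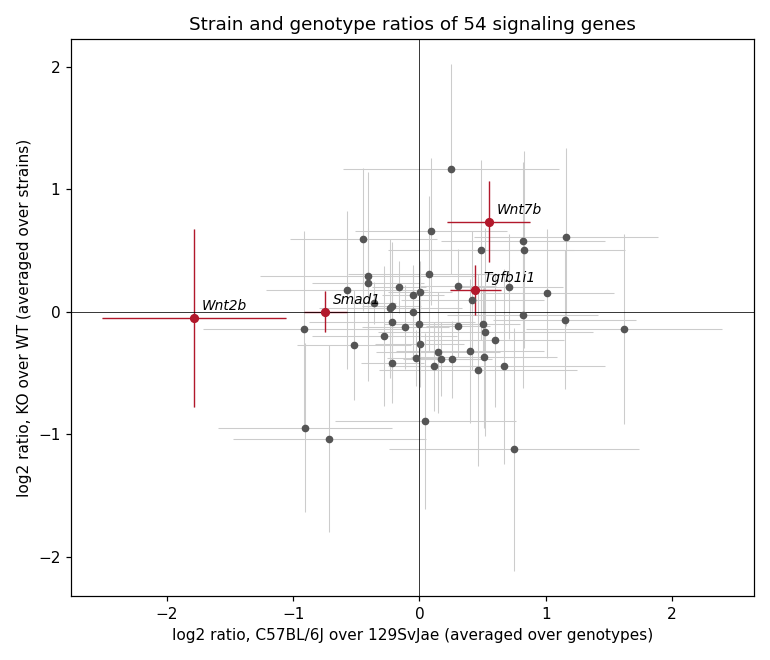
Each point is 1 of the 54 tested genes, with its averaged log2 ratio of C57BL/6J over 129SvJae on the horizontal axis, that of KO over WT on the vertical axis, and lines of 1 SE on each side. The 4 genes in red had an unadjusted p under 0.05 in one of these ratios: Smad1 (-0.74) and Wnt2b (-1.78) lay left of 0, and Tgfb1i1 (0.44) and Wnt7b right of it, with Wnt7b at 0.74 for KO over WT.

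Among the FGF ligands, Fgf1, Fgf4 and Fgf7 had means above 50 in all groups. Fgf1, or acidic FGF, a factor present in the ocular fluids, had signals of 129.9 and 110.1 in C57BL/6J KO lenses, 291 and 147 in C57BL/6J WT lenses, 119.8 and 164 in 129SvJae KO lenses, and 191 and 118 in 129SvJae WT lenses. The highest came from the array with the fluidics error. In C57BL/6J lenses both KO arrays were below both WT arrays, and in 129SvJae lenses KO and WT overlapped. Fgf4, an FGF of the early embryo, gave 182 and 278 in C57BL/6J KO lenses, 171 and 247 in C57BL/6J WT lenses, 198 and 187 in 129SvJae KO lenses, and 138 and 179.7 in 129SvJae WT lenses. Fgf7, also called keratinocyte growth factor, gave 121 and 40.0 in C57BL/6J KO lenses, 98.9 and 81.8 in C57BL/6J WT lenses, 84.5 and 28.3 in 129SvJae KO lenses, and 59.9 and 66.2 in 129SvJae WT lenses. For Fgf4 both KO arrays were above both WT arrays in 129SvJae lenses, and for Fgf7 both C57BL/6J arrays were above both 129SvJae arrays in WT lenses, while the strains as a whole overlapped for both genes. The averaged strain ratios of the 6 FGF ligands tested ran from -0.91 to 0.67 and their averaged KO ratios from -0.45 to 1.17, none at an unadjusted p under 0.05. Among the homologous factors, Fgf11 alone was above 50 in all groups, at 189 and 169.8 in C57BL/6J KO lenses, 258 and 169 in C57BL/6J WT lenses, 156 and 129 in 129SvJae KO lenses, and 195 and 222 in 129SvJae WT lenses. On their brightest probe sets all 3 homologous factors tested had averaged KO ratios below 0 (-0.47 to -0.17). Over both strains together KO and WT arrays overlapped for each, while in 129SvJae lenses both Fgf11 KO arrays were below both WT arrays. The other Fgf11 probe set tested had an averaged KO ratio of the opposite sign, at 0.56 (SE 0.71).

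Fgfr2, which carries FGF signals in lens epithelium and fibers, was the FGF receptor with an unadjusted p under 0.05 between strains, in WT lenses. Its brightest probe set had signals of 1603 and 1448 in C57BL/6J KO lenses, 955 and 1349 in C57BL/6J WT lenses, 1388 and 1695 in 129SvJae KO lenses, and 2168 and 1602 in 129SvJae WT lenses. In WT lenses both C57BL/6J arrays were below both 129SvJae arrays, while in KO lenses the strains overlapped, and in C57BL/6J lenses both KO arrays were above both WT arrays. The log2 ratio of C57BL/6J over 129SvJae was -0.72 in WT lenses (SE 0.25, limma adjusted p = 0.628) and -0.01 in KO lenses (SE 0.25, adjusted p = 1). The interaction was 0.71 (SE 0.35, adjusted p = 1), with 0.46 to 0.96 when single arrays were left out, and its unadjusted p of 0.0637 was the lowest of the 54 genes. With the mean of all Fgfr2 probe sets the interaction was 0.23 (SE 0.40). Without the first 129SvJae WT array the WT ratio was -0.50, and without the C57BL/6J WT array with the fluidics error it was -0.47. The other probe sets of Fgfr2 gave WT ratios of -0.10 (SE 0.36) and 0.25 (SE 0.58). Fgfr1 gave 39.3 and 187 in C57BL/6J KO lenses, 34 and 121 in C57BL/6J WT lenses, 132 and 130.0 in 129SvJae KO lenses, and 71.8 and 83.7 in 129SvJae WT lenses, and Fgfr3 gave 109 and 229.7 in C57BL/6J KO lenses, 171 and 167 in C57BL/6J WT lenses, 201 and 139 in 129SvJae KO lenses, and 166 and 209.6 in 129SvJae WT lenses. Both receptors act in the lens together with Fgfr2. For Fgfr1 both KO arrays were above both WT arrays in 129SvJae lenses, and on the brighter Fgfr3 probe set every pair of groups compared overlapped. The other Fgfr3 probe set had 78.35 and 61.45 in C57BL/6J WT lenses, against 38.4 and 46.7 in 129SvJae WT lenses and 38.9 and 47.7 in C57BL/6J KO lenses. Neither pair overlapped, and signals of these last groups were under 50. Its strain ratio was 0.71 in WT lenses (SE 0.80) and 0.32 averaged (SE 0.57), the opposite sign.

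**Figure D3:**
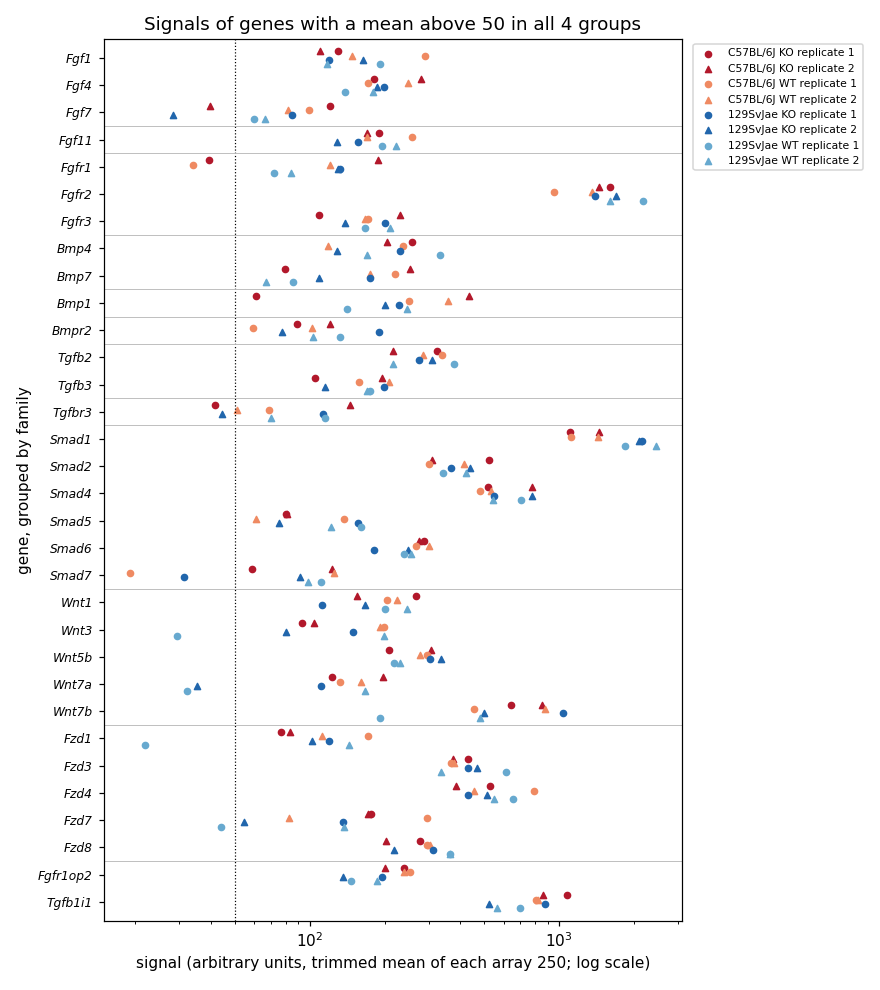
Signals of the 32 genes with a mean above 50 in all 4 groups are shown on a log axis, 1 symbol per array, with circles for replicate 1, triangles for replicate 2 and a dotted line at 50. For Smad1 the 4 C57BL/6J arrays (1106 to 1440) lie left of the 4 129SvJae arrays (1830 to 2448), and for 29 of the other 31 genes the arrays of the strains, taken over both genotypes, overlap.

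Bmp4 and Bmp7, the BMPs best known from lens induction, were the BMP ligands above 50 in all groups. Bmp4 had signals of 258 and 204 in C57BL/6J KO lenses, 237 and 118 in C57BL/6J WT lenses, 231 and 129 in 129SvJae KO lenses, and 333 and 170.1 in 129SvJae WT lenses. On this probe set every pair of groups compared overlapped, and the other Bmp4 probe set tested ranged from 10.5 to 89.5. Bmp7 had signals of 79.8 and 254 in C57BL/6J KO lenses, 219 and 174 in C57BL/6J WT lenses, 174 and 109 in 129SvJae KO lenses, and 85.8 and 66.8 in 129SvJae WT lenses. In WT lenses both C57BL/6J arrays were above both 129SvJae arrays, and in KO lenses the C57BL/6J pair held both the lowest and the highest signal. The log2 ratio of C57BL/6J over 129SvJae was 1.37 in WT lenses (SE 0.60, adjusted p = 0.751) and 0.04 in KO lenses (SE 0.60, adjusted p = 1), with an interaction of -1.32 (SE 0.85, adjusted p = 1). The interaction was -0.49 without the first C57BL/6J KO array and -2.15 without the second. Bmp1, which despite its name is a protease that trims procollagen, gave 60.9 and 436 in C57BL/6J KO lenses, 249 and 357 in C57BL/6J WT lenses, 229 and 200.0 in 129SvJae KO lenses, and 141 and 245 in 129SvJae WT lenses. On this probe set the second C57BL/6J KO signal was the highest and the first the lowest of the 8. The other Bmp1 probe set tested gave 169.6 and 39.1 in C57BL/6J KO lenses. It gave 53.0 and 70.6 in 129SvJae KO lenses, against 189 and 86.3 in 129SvJae WT lenses. Its KO ratio in 129SvJae lenses was -1.06 (SE 0.75), against 0.21 (SE 0.70) on the brighter probe set. Bmpr2, the type II receptor for BMPs, gave 88.8 and 121 in C57BL/6J KO lenses, 59.3 and 102 in C57BL/6J WT lenses, 189 and 77.7 in 129SvJae KO lenses, and 133 and 103 in 129SvJae WT lenses. In WT lenses both C57BL/6J arrays were below both 129SvJae arrays, and in KO lenses the strains overlapped.

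Tgfb2, the TGF-β isoform most known from the eye, had signals of 325 and 216 in C57BL/6J KO lenses, 339.6 and 284 in C57BL/6J WT lenses, 274 and 310.5 in 129SvJae KO lenses, and 378 and 215 in 129SvJae WT lenses. Its averaged ratios were close to 0, at -0.01 for strain (SE 0.27) and -0.10 for KO (SE 0.27). Tgfb3 gave 105 and 195 in C57BL/6J KO lenses, 158 and 209 in C57BL/6J WT lenses, 198 and 115 in 129SvJae KO lenses, and 174 and 169.6 in 129SvJae WT lenses. Tgfbr3, or betaglycan, which presents TGF-β2 to the other receptors, gave 41.9 and 145 in C57BL/6J KO lenses, 68.7 and 51.2 in C57BL/6J WT lenses, 113 and 44.5 in 129SvJae KO lenses, and 115 and 70.0 in 129SvJae WT lenses. For Tgfb2 and Tgfb3 every pair of groups compared overlapped, and for Tgfbr3 both C57BL/6J arrays were below both 129SvJae arrays in WT lenses.

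Smad1, which carries BMP signals into the nucleus, had the smallest p of the 54 genes in the strain comparison. Its brighter probe set had signals of 1106 and 1439.8 in C57BL/6J KO lenses, 1117 and 1428 in C57BL/6J WT lenses, 2143 and 2086 in 129SvJae KO lenses, and 1830.5 and 2448 in 129SvJae WT lenses. Every C57BL/6J array was below every 129SvJae array, by about the same amount in KO and in WT lenses, and KO and WT arrays of a strain overlapped. The averaged strain ratio was -0.74 (SE 0.17, 95% interval -1.11 to -0.38, limma adjusted p = 0.113), a level in C57BL/6J lenses 0.597 times that in 129SvJae lenses. It did not pass the threshold. With the replicate number as a block the same ratio (SE 0.13) had a limma adjusted p of 0.0296, which passes. The labels do not say that arrays of the same number belong together, and the first arrays shared a scan session. The adjusted p was 0.723 without a variance trend and 0.522 with the methods' t-test, and neither passes. With the scan session as a block, which sets aside the second 129SvJae WT array, the ratio was -0.70. Within replicate 1 the ratio was -0.95 in KO and -0.71 in WT lenses, and within replicate 2 it was -0.53 in KO and -0.78 in WT lenses. Without the first 129SvJae WT array it was -0.85 (adjusted p = 0.0754), and without the C57BL/6J WT array with the fluidics error -0.66 (adjusted p = 0.382).

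The other Smad1 probe set gave 515 and 865 in C57BL/6J KO lenses, 623 and 747 in C57BL/6J WT lenses, 909 and 1227 in 129SvJae KO lenses, and 814 and 1048 in 129SvJae WT lenses. It ran the same way, with 1 C57BL/6J array (865) above 1 129SvJae array (814), and its averaged strain ratio was -0.55 (SE 0.21, adjusted p = 0.538). The KO effect on Smad1 was 0.00 in each strain (SE 0.24), with a 95% interval of -0.51 to 0.51.

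Smad5, the other BMP Smad of the set, gave 80.7 and 80.7 in C57BL/6J KO lenses, 137 and 61 in C57BL/6J WT lenses, 157 and 75.1 in 129SvJae KO lenses, and 160.3 and 122 in 129SvJae WT lenses. Its averaged strain ratio was -0.52 (SE 0.45, adjusted p = 0.919), with overlapping strains. Smad2, a TGF-β Smad, gave 525 and 310.5 in C57BL/6J KO lenses, 299.5 and 416 in C57BL/6J WT lenses, 368 and 439 in 129SvJae KO lenses, and 343 and 422 in 129SvJae WT lenses, and Smad4, the partner of both kinds, gave 518 and 776 in C57BL/6J KO lenses, 482 and 534 in C57BL/6J WT lenses, 549 and 781 in 129SvJae KO lenses, and 702 and 541 in 129SvJae WT lenses. Their averaged strain ratios were -0.05 (SE 0.25) and -0.16 (SE 0.21). The inhibitory Smads were the last of the family. Smad6, which restrains BMP signals, had signals of 288 and 274 in C57BL/6J KO lenses, 268 and 301 in C57BL/6J WT lenses, 181 and 247 in 129SvJae KO lenses, and 239.6 and 254 in 129SvJae WT lenses. All 4 C57BL/6J arrays were above all 4 129SvJae arrays by a narrow margin, and the averaged strain ratio was 0.31 (SE 0.25, adjusted p = 0.914). Smad7, which restrains both TGF-β and BMP signals, gave 58.5 and 123 in C57BL/6J KO lenses, 19 and 125 in C57BL/6J WT lenses, 31.2 and 91 in 129SvJae KO lenses, and 111 and 98.4 in 129SvJae WT lenses, and both strains had arrays under 50.

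Over the averaged strain comparison, 4 of the 54 genes had arrays of the strains that did not overlap, against 5.57% of all probe sets. Smad1 and Wnt2b were the 2 lower in C57BL/6J (2.62% of all probe sets) and Smad6 and Fgfr1op2 the 2 higher (2.95%). For KO against WT over both strains this held for 0 of the 54 genes, against 2.19%.

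Of the Wnt ligands, 5 were above 50 in all groups. Wnt7b, which acts through β-catenin in several epithelia, had signals of 644 and 851 in C57BL/6J KO lenses, 454 and 880.1 in C57BL/6J WT lenses, 1036 and 501 in 129SvJae KO lenses, and 191 and 483 in 129SvJae WT lenses. In 129SvJae lenses both KO arrays were above both WT arrays, while in C57BL/6J lenses KO and WT overlapped. The averaged KO ratio was 0.74 (SE 0.33, limma adjusted p = 0.998), that in 129SvJae lenses 1.25 (SE 0.46, adjusted p = 1), that in C57BL/6J lenses 0.23 (SE 0.46, adjusted p = 1), and the interaction -1.02 (SE 0.66, adjusted p = 1). The first 129SvJae WT array, which stood apart in Gja3, Prm1 and Sag, carried the lowest signal, and without it the ratio in 129SvJae lenses was 0.58, the averaged one 0.40 and the interaction -0.35. Without the first 129SvJae KO array, the highest of the 8, these were 0.72, 0.47 and -0.49, and without the second 129SvJae WT array 1.91, 1.07 and -1.69. Within replicate 1 the KO ratio in 129SvJae lenses was 2.44 and within replicate 2 it was 0.05.

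Wnt1, the founding member of the family, gave 266 and 155 in C57BL/6J KO lenses, 204 and 223 in C57BL/6J WT lenses, 112 and 167 in 129SvJae KO lenses, and 199.9 and 247 in 129SvJae WT lenses. Wnt3 gave 93.1 and 104 in C57BL/6J KO lenses, 198 and 190.5 in C57BL/6J WT lenses, 149 and 80.2 in 129SvJae KO lenses, and 29.3 and 199 in 129SvJae WT lenses, and Wnt7a gave 123 and 197 in C57BL/6J KO lenses, 132 and 160.2 in C57BL/6J WT lenses, 111 and 35.4 in 129SvJae KO lenses, and 32.3 and 166 in 129SvJae WT lenses. In Wnt3 and Wnt7a the first 129SvJae WT array again had the lowest signal, below 50. Wnt5b, a Wnt that acts mostly without β-catenin, gave 207 and 306 in C57BL/6J KO lenses, 296 and 277 in C57BL/6J WT lenses, 302 and 336 in 129SvJae KO lenses, and 218 and 231 in 129SvJae WT lenses. Taken over all 8 arrays, the strains overlapped for all 4 genes, as did KO and WT.

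Wnt2b and Wnt3a had groups near background. Wnt2b gave 22.7 and 15.2 in C57BL/6J KO lenses, 13.2 and 11.3 in C57BL/6J WT lenses, 59 and 27.9 in 129SvJae KO lenses, and 68.2 and 64.3 in 129SvJae WT lenses. Every C57BL/6J array was below every 129SvJae array and below 50, so the averaged strain ratio of -1.78 (SE 0.73, adjusted p = 0.611) compares signals at or near background. With a floor of 50 under all signals it was -0.26. Wnt3a, a Wnt that activates β-catenin, gave 116 and 123 in C57BL/6J KO lenses, 44.8 and 26.5 in C57BL/6J WT lenses, 62.3 and 8.89 in 129SvJae KO lenses, and 47.1 and 26.1 in 129SvJae WT lenses. Both C57BL/6J KO arrays were above the other 6. The other 3 groups had means under 50, so no ratio is given.

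Of the Frizzled receptors, Fzd1, Fzd3, Fzd4, Fzd7 and Fzd8 were above 50 in all groups. Fzd4, the receptor for Norrin as well as for Wnts, had signals of 526 and 387 in C57BL/6J KO lenses, 789.8 and 454 in C57BL/6J WT lenses, 431 and 514 in 129SvJae KO lenses, and 654 and 549.8 in 129SvJae WT lenses. Fzd3, known from the guidance of axons, gave 431 and 375 in C57BL/6J KO lenses, 367 and 379 in C57BL/6J WT lenses, 430.0 and 469 in 129SvJae KO lenses, and 609.8 and 337 in 129SvJae WT lenses. Their averaged strain ratios were -0.03 (SE 0.23) and -0.22 (SE 0.23). For Fzd4 both KO arrays were below both WT arrays in 129SvJae lenses, with an averaged KO ratio of -0.38 (SE 0.23, adjusted p = 0.998). On the brighter Fzd3 probe set every pair of groups compared overlapped. The other Fzd3 probe set had 128 and 80.9 in C57BL/6J WT lenses, against 35.6 and 45.3 in 129SvJae WT lenses. Its strain ratio was 1.34 in WT lenses (SE 0.76) and 0.47 averaged (SE 0.535), the opposite sign. Fzd8 gave 276 and 202 in C57BL/6J KO lenses, 294 and 305 in C57BL/6J WT lenses, 312 and 218 in 129SvJae KO lenses, and 366 and 366 in 129SvJae WT lenses. In each strain both KO arrays were below both WT arrays. Fzd1 gave 76.5 and 83.3 in C57BL/6J KO lenses, 171 and 112 in C57BL/6J WT lenses, 119.6 and 102 in 129SvJae KO lenses, and 21.9 and 144 in 129SvJae WT lenses, and Fzd7 gave 175 and 171 in C57BL/6J KO lenses, 295 and 82.7 in C57BL/6J WT lenses, 136 and 54.6 in 129SvJae KO lenses, and 44 and 137 in 129SvJae WT lenses. The first 129SvJae WT array was the lowest of the 8 for both of these. The averaged KO ratios of the 7 Frizzled genes tested ran from -0.42 to 0.66, none at an unadjusted p under 0.05.

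Of the genes that share only a symbol, Tgfb1i1, which encodes the focal adhesion adaptor Hic-5, had signals of 1076 and 859.8 in C57BL/6J KO lenses, 809 and 824 in C57BL/6J WT lenses, 881 and 524 in 129SvJae KO lenses, and 695 and 563 in 129SvJae WT lenses. Both C57BL/6J groups had higher means, with overlap, and the averaged strain ratio was 0.44 (SE 0.20, adjusted p = 0.715). Fgfr1op2, named for a fusion with FGFR1 in human leukemia, gave 239 and 201 in C57BL/6J KO lenses, 253 and 239 in C57BL/6J WT lenses, 195 and 135 in 129SvJae KO lenses, and 147 and 186 in 129SvJae WT lenses. All C57BL/6J arrays were above all 129SvJae arrays, the averaged strain ratio being 0.50 (SE 0.29, adjusted p = 0.838). Bmp2k, a kinase that BMP2 induces, stayed at or under 59.9 on every array.

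Other genes of the same pathways were read from 3 lists, with 40 tested genes of the FGF pathway, 45 of the BMP and TGF-β pathways and 47 of the Wnt pathway. One of these 132 genes was called in the averaged strain comparison, and 0 were called in the other 6. This gene was Strap, whose product binds the TGF-β receptors and holds back their signal together with Smad7. Its probe set had signals of 619.9 and 719 in C57BL/6J KO lenses, 967 and 621 in C57BL/6J WT lenses, 226 and 274 in 129SvJae KO lenses, and 295 and 239 in 129SvJae WT lenses. All 4 C57BL/6J arrays were above all 4 129SvJae arrays, and Strap was higher in C57BL/6J lenses by a log2 ratio of 1.49 (SE 0.22, limma adjusted p = 0.00891). The call was lost with median centring of the arrays (adjusted p = 0.0503), without a variance trend (0.389), with the methods' own test (0.298) and without the second C57BL/6J KO array (0.0807). Without the first 129SvJae WT array the ratio was 1.56 (adjusted p = 0.0162).

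**Figure D4:**
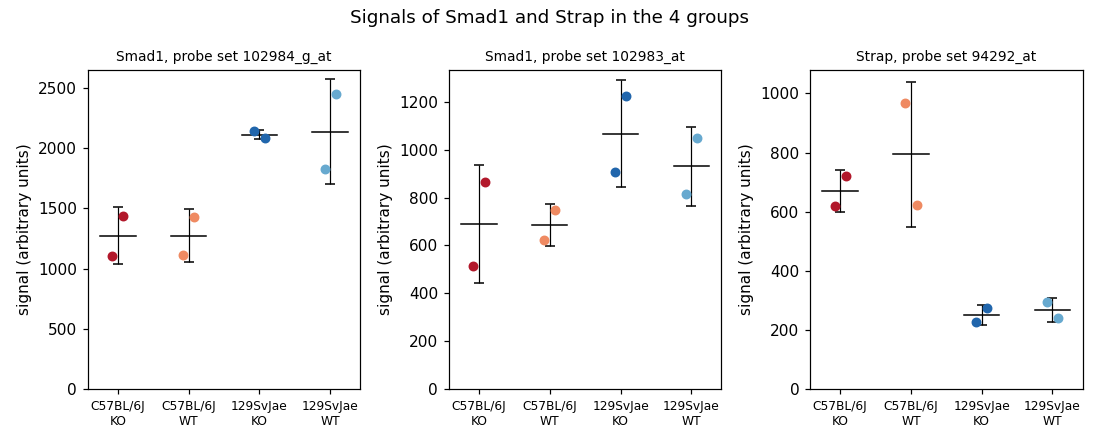
Points are the signals of the 2 arrays of each group on a linear axis from 0, for both probe sets of Smad1 and for Strap, with the mean as a horizontal line and 1 SD as whiskers. The C57BL/6J points lie below the 129SvJae points for the brighter Smad1 probe set (left) and above them for Strap, where the lowest C57BL/6J signal is 619.9 and the highest 129SvJae signal is 294.8.

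The stretches just before the start sites of Smad1 and Strap are shown because these genes had the lowest strain p among the 54 genes and the only call among the pathway genes. They are the 250 bases before the RefSeq start in build GRCm38.p6, whose reference strain is C57BL/6J, at chr8:79399429-79399678 on the minus strand for Smad1 and chr6:137734832-137735081 on the plus strand for Strap. Capitals mark the GC box GGGCGG and the Smad motif GGCGC, on either strand.
Smad1: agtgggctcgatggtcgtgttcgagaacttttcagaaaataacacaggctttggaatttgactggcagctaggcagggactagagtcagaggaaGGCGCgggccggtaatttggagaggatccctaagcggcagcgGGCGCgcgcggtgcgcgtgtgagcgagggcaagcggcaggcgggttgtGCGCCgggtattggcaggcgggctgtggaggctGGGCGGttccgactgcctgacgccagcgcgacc
Strap: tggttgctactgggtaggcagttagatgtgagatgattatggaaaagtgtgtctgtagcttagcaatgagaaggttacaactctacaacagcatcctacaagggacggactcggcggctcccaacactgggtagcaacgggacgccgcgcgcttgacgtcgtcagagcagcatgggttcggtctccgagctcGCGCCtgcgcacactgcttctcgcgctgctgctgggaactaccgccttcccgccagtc
The Smad1 stretch held 1 GC box and 3 Smad motifs, none overlapping, with 63.6% of its bases G or C. That of Strap held 0 GC boxes and 1 Smad motif, with 57.6%. The palindromic Smad motif GTCTAGAC was in neither. Among 32851 such stretches in the same table, 32.7% held GGGCGG, 32% held GGCGC and 0.167% held GTCTAGAC. The matches describe these letters in the reference and not a site in use.

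At an unadjusted limma p under 0.05 between averaged strains, the FGF list had 3 of 40 tested genes higher in C57BL/6J lenses and 1 lower. The BMP and TGF-β list had 2 and 0 of 45, and the Wnt list 5 and 1 of 47. Over all probe sets tested, 3.64% were higher and 3.32% lower, and the differences from these shares were not tested. The medians of the lists' averaged strain ratios were 0.06, 0.18 and 0.09, beside 0.01 over all probe sets. In the FGF list Mapk14, the p38α kinase, had 365 and 392 in C57BL/6J KO lenses, 264 and 335 in C57BL/6J WT lenses, 566 and 643 in 129SvJae KO lenses, and 505 and 565 in 129SvJae WT lenses. The strains did not overlap, at a ratio of -0.76 (SE 0.20, adjusted p = 0.222). The heparan sulfate carriers Sdc4 (syndecan 4, 1.18, SE 0.37) and Hspg2 (perlecan, 1.47, SE 0.51) and the MAP kinase phosphatase Dusp1 (0.58, SE 0.24) had positive ratios, with adjusted p of 0.361, 0.449 and 0.613. For Sdc4 the strains did not overlap, as for 5.57% of all probe sets, and for Hspg2 and Dusp1 they did. The Hspg2 ratio was 2.26 without the second 129SvJae WT array and 0.69 without the first, which carried its lowest signal (67.6).

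In the BMP and TGF-β list, beside Strap, the smallest p came from Map3k7, the kinase TAK1 (1.31, SE 0.46, adjusted p = 0.449), the inhibin chain Inhbc (0.81, SE 0.39, adjusted p = 0.752) and the Smad phosphatase Ppm1a (-0.67, SE 0.37, adjusted p = 0.812). In the Wnt list Axin2, a target and inhibitor of β-catenin signaling, had 99.5 and 103 in C57BL/6J KO lenses, 103 and 181 in C57BL/6J WT lenses, 61.6 and 59 in 129SvJae KO lenses, and 41.6 and 19.9 in 129SvJae WT lenses. The strains did not overlap, at a ratio of 1.50 (SE 0.51, adjusted p = 0.436). Both 129SvJae WT signals were under 50, so this ratio compares signals partly at or near background. The other Wnt list genes were the co-repressor Ctbp2 (0.87, SE 0.29), the transcription factor Tcf7l1 (1.14, SE 0.39) and the β-catenin co-activator Pygo2 (0.68, SE 0.26), with adjusted p of 0.432, 0.439 and 0.528.

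For KO over WT, averaged over strains, the lists had 1 gene higher and 1 lower (FGF), 1 higher (BMP and TGF-β) and 1 higher (Wnt) at an unadjusted p under 0.05, and all adjusted p were 0.998. Over all probe sets tested, 1.36% were higher and 1.69% lower at this p. The 2 FGF list genes, named for their small p, had KO and WT arrays that did not overlap over both strains. Over all probe sets this held for 2.19%. Cbl, a ubiquitin ligase for receptor tyrosine kinases, had 164 and 152 in C57BL/6J KO lenses, against 32 and 107 in C57BL/6J WT lenses, and 198 and 133 in 129SvJae KO lenses, against 45 and 84.1 in 129SvJae WT lenses, a ratio of 1.42 (SE 0.49). The adaptor Grb10 had 64.7 and 60.6 in C57BL/6J KO lenses, against 131 and 112 in C57BL/6J WT lenses, and 52.4 and 47.1 in 129SvJae KO lenses, against 138 and 123 in 129SvJae WT lenses, a ratio of -1.17 (SE 0.43). These were values that did not pass the test after adjustment.

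The remaining FGF list genes by p were the PI3-kinase subunit Pik3r1 (-1.27, SE 0.67) and the Ras GTPase activator Rasa1 (0.55, SE 0.33). In the BMP and TGF-β list they were Map3k7 (1.06, SE 0.46), the Nodal inhibitor Lefty1 (0.72, SE 0.34), the BMP and Wnt antagonist Cer1 (-1.84, SE 0.94) and the matrix proteoglycan Bgn (0.52, SE 0.28). In the Wnt list they were the casein kinase Csnk1g2 (0.54, SE 0.24), the Wnt antagonist Sfrp1 (0.28, SE 0.14), the matricellular target Ccn4 (1.46, SE 0.77) and the signal transducer Dvl2 (-0.45, SE 0.29). Sfrp1 was bright on all arrays, with 2629.8 and 2989 in C57BL/6J KO lenses, 2598 and 2688 in C57BL/6J WT lenses, 2581 and 2830.5 in 129SvJae KO lenses, and 2134 and 1782 in 129SvJae WT lenses. Its KO and WT arrays overlapped across strains, and within 129SvJae lenses both KO arrays were above both WT arrays. Ccn4, Cer1 and Pik3r1 had groups near background, so their ratios compare signals partly at or near background. Ccn4 had 74.05 and 59.85 in 129SvJae KO lenses and lay between 6.7 and 36.58 on all other arrays. Cer1 ranged from 4.6 to 61.36 in KO lenses and from 38.47 to 129.51 in WT lenses. Pik3r1 ranged from 13.09 to 56.86 in KO lenses and from 31.28 to 100.73 in WT lenses.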

How the data were processed

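Total RNA from pooled lenses was amplified to biotin-labeled cRNA and hybridized to MG-U74Av2 arrays. The authors deposited 1 signal intensity per probe set and array, made with MAS5, as the submitters' processing notes state without a version, and scaled by them to a mean of 250. The run records gave the scan sessions. Control probe sets were left out. Of the 12422 others, 10833 carry a single gene symbol, 396 several and 1193 none, and symbols were updated with a gene table of GRCm38.p6. There were 0 value columns without a sample.

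From these intensities arrays were brought to a common trimmed mean of 250 (2% off each end), and 1 signal that was not positive was raised to 1. Log2 values of the 10078 probe sets whose mean passed 50 in any group were fitted in R 4.3.3 with limma 3.58.1 (4 group means, trended variance prior, 4 residual and 9.17 prior degrees of freedom). Tables were made in Python 3.11.15 with pandas 2.3.3. The fit was tested on simulated data. Adjusted p-values are Benjamini-Hochberg over all probe sets tested. The number of arrays and the signal over background limit the precision.

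Groups and replicate numbers came from the titles. The replicate number was tried as a block because deviations of same-numbered arrays from their group means correlated, at 0.129 to 0.206 in all 6 pairs of groups. The labels name no pairing, and the first arrays shared a scan session. Matched pools and a shared run cannot be told apart here.

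The genes and lists were chosen with earlier results of these data known. Signals of every array are given for genes called, with an unadjusted p under 0.05 in the averaged strain, averaged KO or interaction comparison, or with a mean above 50 in all groups, and for up to 4 genes per list and comparison with the smallest p their ratios are given. Fgfr2, Bmp7, Wnt3a, Smad6 and Fgfr1op2 were singled out after their values were seen. Alternatives were other scalings, offsets, floors and level filters, no variance trend, the replicate number or scan session as a block, only the groups compared, the methods' t-test, other probe sets per gene, and each array left out in turn. The methods' t-test was a fit without moderation of the variance, and its p-values were adjusted, which the methods do not mention.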

Additional observations from a re-analysis of the deposited data

How the results depend on the processing

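With 2 arrays a group, 9.17 prior degrees of freedom carried most of the variance estimate. Of the 54 genes tested, 1 (Smad1) was called between the averaged strains with the replicate number as a block, against 0 otherwise. Its averaged strain ratio stayed negative under all 21 alternatives (-0.85 to -0.55, adjusted p 0.0296 to 0.723), one of which, its other probe set, was chosen after seeing the data. The block changed no other call of these genes or of the pathway lists. Of the pathway genes in the averaged strain comparison, 0 were called with arrays centred on the median and 0 without a variance trend. After adjustment 0 were called with the methods' t-test, and 2 (Strap and Hspg2) once scan sessions were blocked. Without C57BL/6J KO replicate 2 the Strap ratio was 1.43. With scan sessions blocked, Hspg2 was also called between strains in WT lenses (3.16) and for KO in 129SvJae lenses (2.49). This block sets aside 129SvJae WT replicate 2, which was alone in its session, as leaving that array out does. Without that array the Hspg2 ratio was 2.26 between averaged strains and 3.58 in WT lenses. Both settings rest on 129SvJae WT replicate 1, which carried the lowest Hspg2 signal (67.6), and are not separate alternatives. A level of 100 was exceeded by 35 of the 72 genes, and 24 were above 50 on every array. Ratios near 0 turned sign. For Fgfr2 between strains in KO lenses, the value was 0.074 with quantile normalization, 0.043 with the mean of all probe sets, and -0.15 to 0.13 with single arrays left out. For Wnt7b it was -0.057 with median centring and -0.48 to 0.56 with single arrays left out, and its KO ratio in C57BL/6J lenses was -0.25 (without C57BL/6J WT replicate 1) to 0.70. For Bmp7 it was -0.12 with quantile normalization, -0.051 with median centring, and -0.79 to 0.88 with single arrays left out. The cause was not tested. Median centring moved the median KO ratio of all probe sets in 129SvJae lenses to 0.09, against -0.05.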
